A study of Mus musculus with 20 samples.

Results

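The mu-class glutathione transferases of the mouse are the 7 genes Gstm1, Gstm2, Gstm3, Gstm4, Gstm5, Gstm6 and Gstm7, which were picked by name out of the 54532 genes of the deposited count table. All 7 were found once in that table, and all 7 passed the filter on low counts that left 15354 genes for testing. Bulk RNA-seq had been carried out on 20 libraries, 10 from kidney tumors and 10 from normal regions of kidney, to compare the expression profiles of the tumors with those of the normal tissue. The tumors came from 10 different C57BL/6 mice of the genotype LSL-Cas9/+; Pax8 Cre/+, in which the kidney had been injected with an adeno-associated virus without Cre that carried sgRNAs against Vhl, Pbrm1, Keap1 and Tsc1. The normal regions came from the same mice, so they carry the same inherited alleles. They come from animals that had the injection, and they are not tissue of an untreated animal. Pax8 Cre switches on Cas9 in cells of the Pax8 lineage, which in the kidney is the nephron and collecting duct epithelium, so editing was limited to those cells and each tumor can hold edited and unedited cells. Mice of both sexes were used in the study, and neither the sex nor the age at collection of each mouse is in the labels.

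Glutathione transferases join the thiol of glutathione to electrophilic compounds, which makes them soluble and ready for export from the cell, and the mu class is 1 of the soluble classes of this family, working as dimers. In the kidney the proximal tubule takes up, conjugates and degrades many such compounds. Several glutathione transferase genes are known targets of the transcription factor Nrf2 (gene Nfe2l2), which Keap1 marks for degradation, and Keap1 is 1 of the 4 genes the sgRNAs were aimed at.

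The 7 genes lie together on mouse chromosome 3 (build mm10, GRCm38) within 149 kb, from base 107895821 to base 108044894. In order of position they are Gstm5 (chr3:107895821-107898686, plus strand), Gstm7 (chr3:107926334-107931817), Gstm6 (chr3:107938847-107943749), Gstm3 (chr3:107963696-107969283), Gstm2 (chr3:107981702-107986453), Gstm1 (chr3:108012255-108017973) and Gstm4 (chr3:108040408-108044894), and all but Gstm5 are on the minus strand. In the GENCODE principal transcripts each of the 7 has 8 coding exons, and the coding sequence is 654 bases (218 codons) long in 6 of them and 672 bases (224 codons) long in Gstm5. Gstm1 and Gstm3 were the most alike in coding sequence among the members, with 89.4% of aligned positions identical, and Gstm5 was the least like the others, with 68.0% to 70.7%. A processed pseudogene on chromosome 5 named Gstm2-ps1 (chr5:116632908-116633564), which the annotation names after Gstm2, was 97.4% identical to the coding sequence of Gstm1 and 84.5% identical to that of Gstm2. How far the sequences differ decides which reads a counter can assign, so 60 coding bases of each gene are shown, starting at coding base 457 of Gstm1. Capitals mark each base that differs from Gstm1, and all sequences are read 5′ to 3′ on the coding strand of GRCm38.
Gstm1: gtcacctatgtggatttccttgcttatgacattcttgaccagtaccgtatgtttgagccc
Gstm2: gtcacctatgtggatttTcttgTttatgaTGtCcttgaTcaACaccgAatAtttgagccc
Gstm3: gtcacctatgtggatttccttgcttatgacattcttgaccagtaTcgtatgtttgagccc
Gstm4: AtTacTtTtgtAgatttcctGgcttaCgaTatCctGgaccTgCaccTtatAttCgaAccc
Gstm5: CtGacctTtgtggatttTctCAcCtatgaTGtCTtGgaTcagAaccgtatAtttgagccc
Gstm6: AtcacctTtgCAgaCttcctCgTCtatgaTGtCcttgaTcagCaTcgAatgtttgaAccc
Gstm7: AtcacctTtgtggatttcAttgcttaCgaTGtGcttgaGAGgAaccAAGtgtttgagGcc
Gstm2-ps1: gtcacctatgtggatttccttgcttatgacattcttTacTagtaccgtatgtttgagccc

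In this stretch Gstm3 differs from Gstm1 at 1 base and the pseudogene at 2 bases, whereas the other members differ at 10 to 16 bases. Over whole transcripts the sharing was small. Of all 100-base words in the annotated transcripts, Gstm1 shared 20 with Gstm3, which is 1.27% of the words of Gstm1 and 1.65% of those of Gstm3. Gstm3 shared 26 words with Gstm6 (2.15% and 1.10%), and no other pair of members shared any. Outside the family, Gstm1 shared 2.61% of its words with Gstm2-ps1 and 2.48% with Gm8834, a processed pseudogene, and Gstm3 shared 3.22% and 7.43% of its words with the same 2 pseudogenes. How reads that match several genes were counted is not given in the sources used here, so part of the counts of Gstm1, Gstm3 and Gstm6 is uncertain. A share of words is not a share of counts. Where Gstm1 is high and Gstm3 low, as in normal kidney, a few counts of Gstm3 may include reads shared with Gstm1. The longest identical coding run of Gstm1 and Gstm3 was 112 bases, and that of Gstm3 and Gstm6 was 125. The paired-end reads named in the paper are longer than both runs, so a full coding read matches only 1 gene of a pair exactly. The counts alone do not tell how near matches were assigned. Gstm3 had 0 counts in normal kidneys 1 and 3 and 1 count in normal kidney 10, which is 0.0139% of its Gstm1 counts. Gstm5 also overlaps the antisense gene 4933431E20Rik by 393 bases, and without strand information reads from the 2 cannot be told apart there.

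The libraries held between 14737516 and 26679704 counts, and no pair of libraries of a group agreed within sampling noise, as duplicates of a library would. The scaling factor of normal kidney 9 was 0.749, against 1.03 to 1.14 in the other normal kidneys, so its CPM (counts scaled by library size and TMM factor) are raised relative to its plain counts. Of the targeted genes, Keap1 mRNA was higher in tumors (56.0 to 91.3 CPM against 36.6 to 50.6), and Vhl (12.3 to 28.6 against 21.6 to 28.8) and Tsc1 (25.7 to 52.0 against 18.9 to 62.1) were lower by edgeR (adjusted p = 1.30e-07, 0.00179 and 0.00871). Pbrm1 was at 36.2 to 74.95 CPM in tumors, against 20.1 to 93.0 in normal tissue (adjusted p = 0.230), and since an edited gene is still transcribed, these levels do not check the editing. Markers of nephron segments other than the proximal tubule were at a summed 1.82 to 16.9 CPM in tumors, against 4085 to 9968 in normal tissue, and all 6 were lower by edgeR. All 6 macrophage markers were higher (summed 276 to 1582 CPM against 88.4 to 291), and 4 of the 10 proximal tubule markers tested were lower. Of the endothelial markers 1 of 4 was higher, and 0 of 4 fibroblast and 0 of 3 adipocyte markers were called. Of the T cell markers tested 1 of 2 was lower, and the 1 skeletal muscle marker tested was higher. Over all genes tested, 23.6% were called higher and 23.8% lower in tumors. Fewer cells of a type and less RNA per cell cannot be told apart in such bulk samples, and the part of these differences in the values below was not tested.

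Across the comparison of tumors with normal kidneys, 4 of the 7 members rose (Gstm1, Gstm3, Gstm4 and Gstm6), 2 fell (Gstm2 and Gstm7) and Gstm5 did not pass the test. The test was edgeR's quasi-likelihood test over 15354 genes, with Benjamini-Hochberg adjusted p under 0.05 taken as a call. The same test called 47.5% of all genes tested, 23.6% higher and 23.8% lower in tumors, so a call as such is common in this comparison. With library totals in place of TMM scaling the split of all calls moved from 3631 higher and 3661 lower to 2850 higher and 4554 lower, with the median gene at −0.14 instead of −0.02 on the log2 scale. The calls of the 7 members were the same with that scaling. The median log2 fold change of the 7 members was 1.31.

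**Figure D1:**
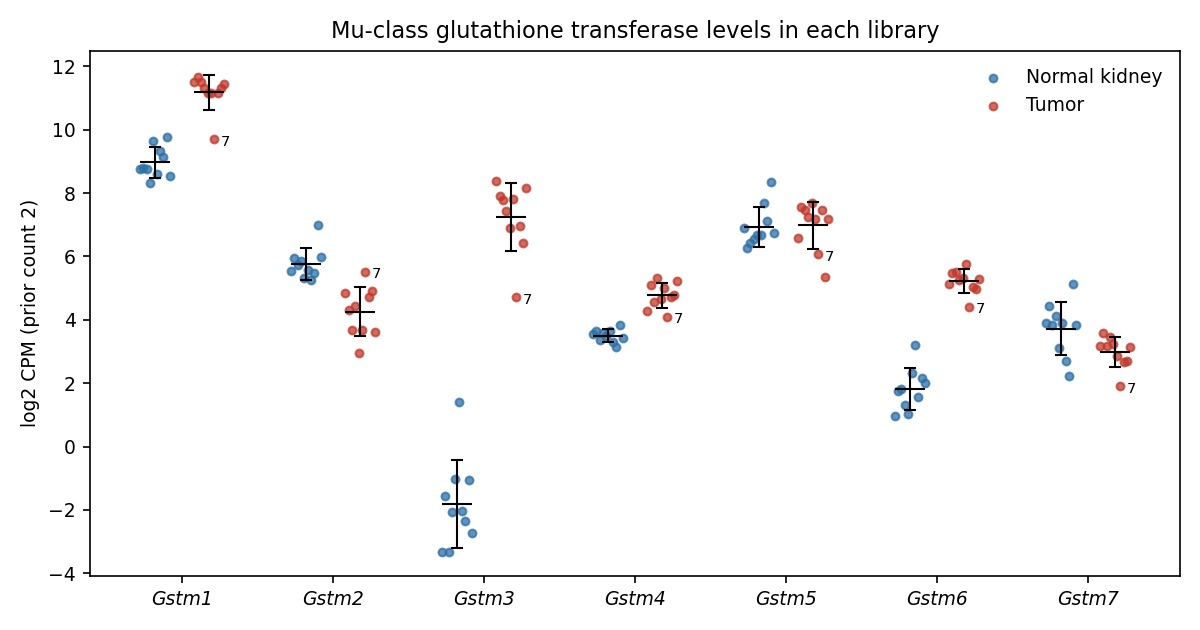
Level of each mu-class gene in each of the 20 libraries, as log2 CPM with a prior count of 2. Each point is a library (blue normal kidney, red tumor), the black bars are the mean and SD of 10 libraries, and the point marked 7 is tumor 7. Red points lie above all blue points for Gstm3, Gstm4 and Gstm6, above all but for tumor 7 in Gstm1, and below all but for tumor 7 in Gstm2, while the colors overlap in Gstm5 and Gstm7.

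Gstm1, the most abundant member in this kidney tissue, was at 828 CPM in the lowest tumor, 2550 at the median and 3230.2 in the highest. In normal kidneys it ran from 320.2 over 439 to 874 CPM. All tumors apart from tumor 7 were at 2265 CPM or more and so above every normal kidney, and tumor 7 (828 CPM) lay between the highest and the second highest of them. Mean levels were 2455 ± 654 CPM for the tumors against 528 ± 188 for normal tissue (SD over 10 libraries a group), and the fitted log2 fold change was 2.22 ± 0.23 (SE; edgeR adjusted p = 7.72e-08). The 10 normal kidneys were themselves spread. Normal kidneys 5, 7, 8 and 9, a group picked after the data were seen, had 568 to 874 CPM of Gstm1, and the other 6 had 320.2 to 439.8. The same 4 libraries held 153 to 263 CPM of Nqo1, a quinone reductase and known Nrf2 target, against 62.5 to 108 in the other 6, and 140 to 1885 CPM of the proximal tubule phosphate transporter Slc34a1, against 2227 to 3582. The part of that difference in the Gstm1 values was not tested.

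Gstm3 was nearly absent from normal kidney and present in every tumor. Its counts in normal kidneys 1 to 10 were 0, 4, 0, 3, 8, 44, 4, 2, 6 and 1, and its counts in tumors ran from 609 to 6622. In CPM these are 26.0, 195.5 and 332.2 for the lowest, the median and the highest tumor. The normal kidneys had 0, 0.142 and 2.53 CPM in the same order, and a count of 0, read as up to 3 counts, still allows 0.169 CPM in normal kidney 1 and 0.148 CPM in normal kidney 3. Every tumor stood above every normal kidney, as it also did for Gstm4 and Gstm6, which was so for 5.87% of all genes tested. Mean levels were 183 ± 95.1 CPM for the tumors against 0.398 ± 0.762 for normal tissue (SD over 10 libraries a group), and the fitted log2 fold change was 8.88 ± 0.73 (SE; edgeR adjusted p = 2.54e-09). That fold rests on few counts in the normal kidneys, chiefly the 44 of normal kidney 6, and without that library it was 10.13 ± 0.59. The call did not rest on it.

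Since Gstm3 and Gstm1 share sequence, the counts of Gstm3 were set against those of Gstm1 in the same library. In tumors Gstm3 had 3.14% to 11.5% of the counts of Gstm1 (median 7.11%), and in normal kidneys 0% to 0.653% (median 0.0329%), so the ranges did not overlap. The 1.27% of words that Gstm1 shares with Gstm3 is not an expected share of counts, so it sets no threshold for these percentages. A pseudogene gave another picture. Gstm2-ps1 had 0.993% to 1.31% of the counts of Gstm1 in tumors and 0.907% to 1.24% in normal kidneys, and Gm8834 had 0.150% to 0.353% and 0.134% to 0.311%. The counts of Gstm2-ps1, 64 to 189 in normal kidneys and 198 to 726 in tumors, rose with a log2 fold change of 2.38 (edgeR adjusted p = 6.06e-08), next to 2.22 for Gstm1. Adding the counts of Gstm2-ps1 to those of Gstm1 left the log2 fold change of Gstm1 at 2.22.

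**Figure D2:**
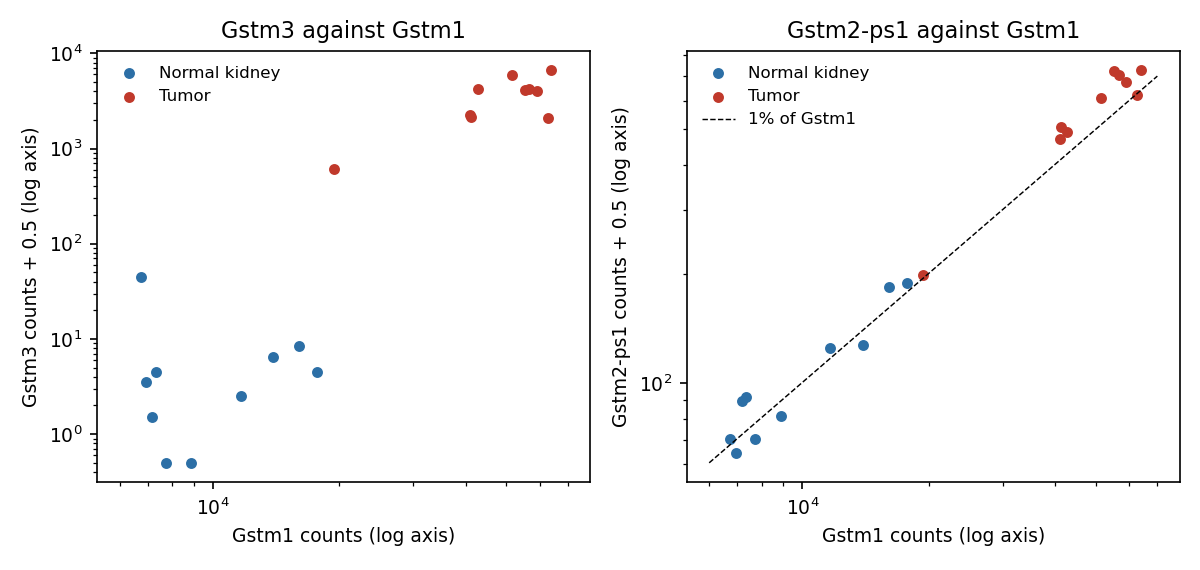
Counts of Gstm3 (left) and of the pseudogene Gstm2-ps1 (right), each with 0.5 added, against the counts of Gstm1 in the same library, on log axes. Blue points are normal kidneys, red points are tumors and the dashed line is 1% of Gstm1. Gstm2-ps1 follows the line in both groups (0.907% to 1.31%), and Gstm3 lies at 3.14% or more of Gstm1 in tumors and at 0.653% or less in normal kidneys.

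Gstm6 also rose from a low level. Tumors had 21.04, 38.4 and 54.7 CPM (lowest, median and highest) and normal kidneys 1.87, 3.35 and 9.06 CPM. The groups did not overlap, with tumor 7 lowest among the tumors and normal kidney 7 highest among the normal kidneys. The log2 fold change was 3.33 ± 0.26 (SE; edgeR adjusted p = 1.28e-09). Words shared with Gstm3 make up 1.10% of those of Gstm6.

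Gstm4 rose by less and was the steadiest member in normal kidney, with a coefficient of variation of 14.3% where the other members had 35.6% or more. Tumors had 16.9, 26.7 and 40.0 CPM of Gstm4 and normal kidneys 8.64, 11.4 and 14.3 CPM. Here too every tumor was above every normal kidney. The log2 fold change was 1.31 ± 0.15 (SE; edgeR adjusted p = 2.40e-07), and Gstm4 shares no 100-base word with any other gene.

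Gstm2 fell. The lowest, median and highest tumor had 7.58, 20.7 and 45.3 CPM, and the normal kidneys had 37.8, 50.2 and 127 CPM. All tumors but tumor 7 were below every normal kidney, so Gstm2 was not among the 4.74% of genes tested with every tumor below every normal kidney, and normal kidney 9 was alone above 63.8 CPM. Mean levels were 21.6 ± 11.3 CPM for the tumors against 58.0 ± 25.9 for normal tissue (SD over 10 libraries a group), and the fitted log2 fold change was −1.42 ± 0.28 (SE; edgeR adjusted p = 0.000298). Gstm7 fell as well but with overlap, with 3.63, 8.82 and 11.8 CPM in the tumors against 4.59, 14.5 and 35.1 in normal tissue. Tumor 7 alone was below every normal kidney in Gstm7. Its log2 fold change was −0.88 ± 0.29 (SE; edgeR adjusted p = 0.0154), and by limma-voom it was −0.70 with an adjusted p of 0.0648, so the call depends on the test.

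Gstm5, which is the most distant member in sequence, did not pass the test. Tumors had 40.7, 149 and 204 CPM and normal kidneys 77.6, 104 and 325 CPM. The groups overlapped widely, with tumors 7 and 9 (66.8 and 40.7 CPM) below every normal kidney and normal kidneys 7 and 9 (205 and 325 CPM) above every tumor. The log2 fold change was 0.04 ± 0.29 (SE; edgeR adjusted p = 0.925). When the libraries were given quality weights in limma-voom it was 0.53 with an adjusted p of 0.00711, and with library totals it was −0.04, so neither a direction nor a lack of change can be read from Gstm5. The antisense gene that overlaps it had a log2 fold change of 0.39 (4933431E20Rik, edgeR adjusted p = 0.335).

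Tumor 7 was the tumor nearest to the normal kidneys in Gstm1, Gstm2, Gstm3, Gstm4 and Gstm6. It also stood apart in markers of other cells. Its summed fibroblast markers were at 3614 CPM, against 92.7 to 426 in the other tumors, its adipocyte markers at 1372 CPM against 46.2 to 388, and its macrophage markers at 1582 CPM against 276 to 745. Its proximal tubule markers were at 1218 CPM, against 3413 to 10110 CPM. Without tumor 7 and normal kidneys 7 and 9, a choice made after the data were seen, the log2 fold changes were 2.46 for Gstm1, −1.47 for Gstm2, 8.88 for Gstm3, 1.38 for Gstm4, 3.69 for Gstm6 and −0.68 for Gstm7, with the same calls. Gstm5 was then at 0.49 (edgeR adjusted p = 0.0692).

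To set the members against each other, CPM were divided by the exon length in kilobases (RPKM). In tumors the order of mean levels was Gstm1 (1667 RPKM), Gstm3 (139.6), Gstm5 (109), Gstm6 (19.2), Gstm4 (16.5), Gstm2 (12.9) and Gstm7 (5.12). Neighbours in that order overlapped in range, except that Gstm1 was above Gstm3 and Gstm5 above Gstm6 in all libraries. In normal kidneys the order was Gstm1 (359 RPKM), Gstm5 (106), Gstm2 (34.5), Gstm7 (9.46), Gstm4 (6.63), Gstm6 (1.91) and Gstm3 (0.303), and the ranges over libraries were apart only between Gstm2 and Gstm7 and between Gstm4 and Gstm6. Such ranges can overlap where the order within each library holds. As shares of the family within a normal kidney, Gstm1 (62.1% to 82.2%), Gstm5 (12.2% to 26.6%) and Gstm2 (3.53% to 10.1%) were apart. Gstm3 was thus last in normal kidney and second in the tumors by mean, while Gstm2 went from the third place to the sixth.

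The make-up of the family differed accordingly. Gstm1 held 84.5 ± 2.84% of the length-scaled family total in tumors but 69.2 ± 5.84% of it in normal tissue (SD over 10 libraries a group). Gstm5 held 5.74 ± 2.09% and 19.98 ± 4.47%, and Gstm2 held 0.884 ± 1.10% and 6.98 ± 2.34%. Gstm3 made up 6.67 ± 2.64% in tumors and 0.0683 ± 0.149% in normal kidneys. Gstm4 and Gstm6, which both rose, had shares of 0.887% and 1.02% in tumors and of 1.39% and 0.386% in normal kidneys, and the share of Gstm4 was thus lower in tumors although its level was higher. The summed family took 0.111% to 0.358% of all counts in tumors and 0.0574% to 0.103% in normal kidneys, with tumor 7 lowest in the first group and normal kidney 9 highest in the second. Its mean log2 CPM was 1.93 higher in tumors, given as a value with no test.

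**Figure D3:**
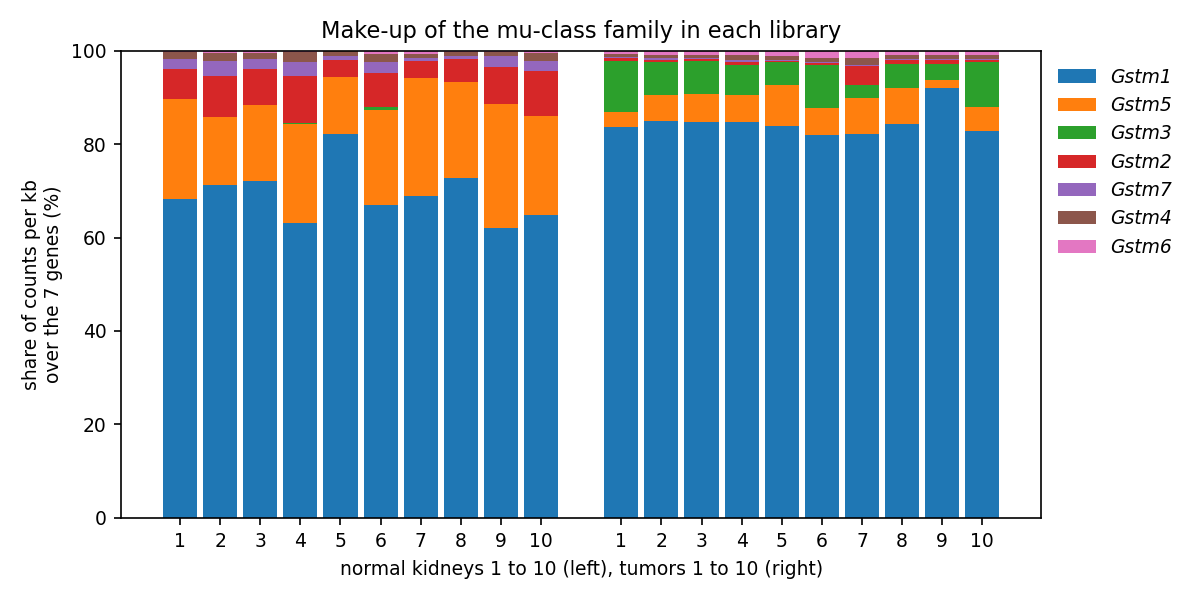
Share of each mu-class gene in the family total of each library (percent of counts per kilobase over the 7 genes), with normal kidneys 1 to 10 on the left and tumors 1 to 10 on the right. Gstm1 is the largest share everywhere (62.1% to 82.2% in normal kidneys, 81.9% to 92.0% in tumors), Gstm5 and Gstm2 are wider bands in normal kidneys, and Gstm3 is visible only in tumors apart from a trace (0.491%) in normal kidney 6.

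Because ratios of members within a library do not depend on scaling, the log2 ratio of counts was compared between groups for all 21 pairs (two-sided permutation test with 100000 resamples, p adjusted over the 21 pairs). The ratio differed in 19 pairs at an adjusted p under 0.05, and in 14 pairs every tumor lay outside the range of the normal kidneys. The 21 pairs are made of 7 genes, so they are not independent. The same shares over pairs of other genes were not computed, and edgeR called 47.5% of all genes tested. Even members that both rose did so unequally. The log2 ratio of Gstm1 to Gstm3 was 3.95 ± 0.65 in tumors but 11.5 ± 1.93 in normal tissue (SD over 10 libraries a group), a difference of −7.58 (permutation p = 1e-05, the smallest these resamples can give; adjusted p = 1.5e-05). Its size depends on the 0.5 added to each count, as Gstm3 had few counts in normal kidneys. With 0.1 or 2 added instead, the difference was −8.17 or −6.82. The log2 ratio of Gstm1 to Gstm6 differed by −1.22 (permutation adjusted p = 0.000198) and that of Gstm1 to Gstm4 by 0.94 (permutation adjusted p = 0.000793). Gstm5, which did not pass the test on its own, differed from Gstm1, with a log2 ratio of Gstm1 to Gstm5 of 4.21 ± 0.73 in tumors and 2.03 ± 0.45 in normal kidneys (permutation adjusted p = 1.5e-05). The pairs that missed the threshold were Gstm2 to Gstm7 (difference −0.77, permutation adjusted p = 0.0641) and Gstm5 to Gstm7 (0.78, permutation adjusted p = 0.0564).

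Along the chromosome, genes that rose and genes that fell were interleaved. From Gstm5 to Gstm4 the log2 fold changes were 0.04, −0.88, 3.33, 8.88, −1.42, 2.22 and 1.31, so that Gstm2, which fell, lies between Gstm3 and Gstm1, which rose. Protein-coding genes on either side of the cluster were examined as well. Eps8l3, an Eps8-like gene 2921 bases from Gstm5, rose with a log2 fold change of 3.86 ± 0.62 (SE; edgeR adjusted p = 2.77e-05). Csf1, the macrophage growth factor, had 0.67, Ampd2 (AMP deaminase) 0.34 and Gnai3 (a G protein subunit) 0.85, all of them calls. Amigo1, an adhesion protein gene, fell by 2.02 on the log2 scale, and Ahcyl1 did not pass (−0.08, edgeR adjusted p = 0.504). Gm10961, Gnat2 and Gpr61 had too few counts to be tested.

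**Figure D4:**
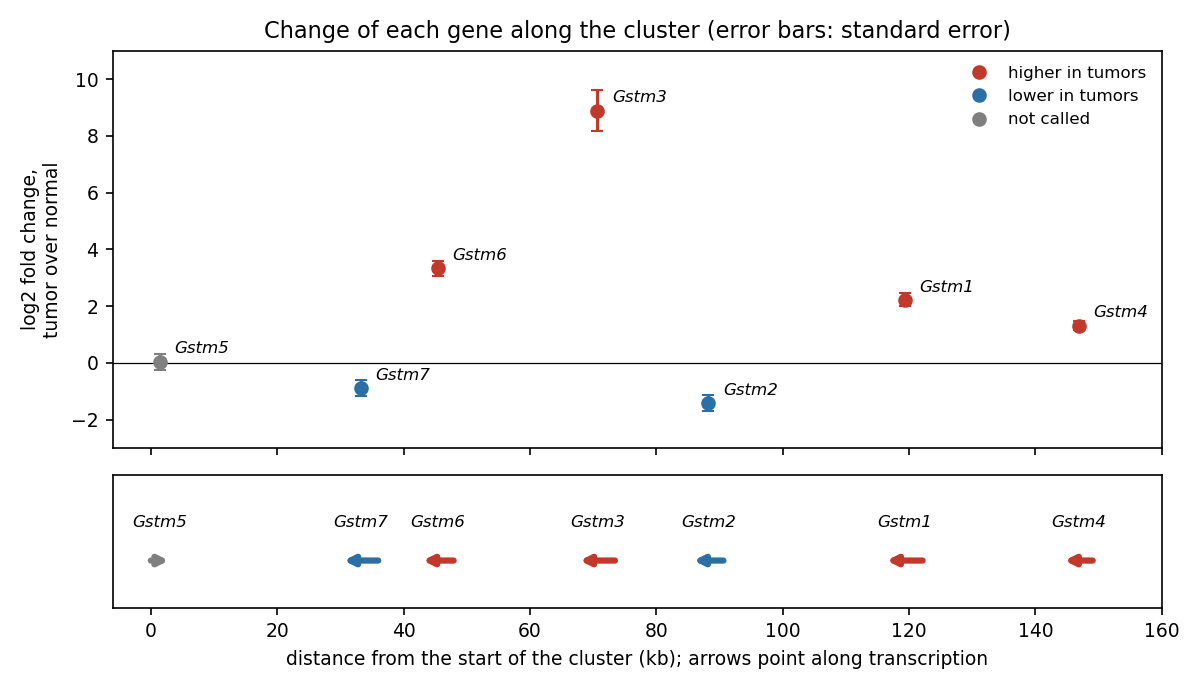
Log2 fold change of each mu-class gene, tumor over normal kidney, against its place in the cluster (distance in kb from the start of Gstm5), with a map of the genes below. Points are edgeR estimates, error bars are standard errors, red marks genes called higher, blue genes called lower and gray Gstm5, and arrows point along transcription. Gstm2, in blue, lies between Gstm3 and Gstm1, both in red, and Gstm7, in blue, lies beside Gstm6, in red.

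Promoters were scanned for 2 short motifs, since Keap1 and Vhl are regulators of factors that bind them. These were TGACNNNGC, the core of the antioxidant response element at which Nrf2 binds, and ACGTG, the core of the hypoxia response element at which HIF binds, searched on both strands in RefSeq windows (GRCm38.p6) from 250 bases before to 50 bases after each start. The first occurs in 12.4% of 32851 such windows and the second in 19.6%, so a match is common. All 7 members had at least 1 window, and 3 matches were found. Each is shown with its motif in capitals in 30 bases, 5′ to 3′ on the strand of the gene: Gstm5 at chr3:107895802-107895831, Gstm7 at chr3:107931724-107931753 and Gstm1 at chr3:108017851-108017880.
Gstm5, antioxidant response element core: caccgcccacTGACCACGCggagggcgggt
Gstm7, antioxidant response element core: tctgaagaccTGACAAAGCgaagccaatcc
Gstm1, hypoxia response element core on the other strand: ttttgtcctgccCACGTttctctagtagtc

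The match of Gstm5 begins 42 bases before the start, that of Gstm7 129 bases before and that of Gstm1 50 bases before, and the last 2 lie inside the gene as the count table bounds it, before an internal start. The antioxidant core was thus found in Gstm5 and Gstm7, and it occurs in a window of 14% of the genes scanned. The windows of Gstm2, Gstm3, Gstm4 and Gstm6 held neither of the 2 strings. Sites outside these windows were not searched, so the scan does not tell which members Nrf2 or HIF can bind.

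Genes that supply glutathione, that encode the other glutathione transferases, that export or degrade the conjugates, and that belong to the Nrf2 system were described beside the members. Over all genes tested 23.6% were called higher and 23.8% lower, which is the background for each count of calls below. No list was tested as a set. Among 6 genes of glutathione synthesis, cystine supply and recycling, 2 rose and 0 fell, with a median log2 fold change of 0.55 against −0.02 over all genes tested. Slc7a11, the cystine transporter, rose with a log2 fold change of 5.02 ± 0.86 (SE; edgeR adjusted p = 6.18e-05), from a mean of 5.28 to 174.5 CPM, and glutathione synthetase (Gss) with 1.12 ± 0.19 (edgeR adjusted p = 4.60e-05). The catalytic subunit of the rate-limiting ligase, Gclc, had 0.69 (edgeR adjusted p = 0.112) and its modifier Gclm 0.24 (edgeR adjusted p = 0.139).

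Of the 19 other glutathione transferase genes tested, 7 rose and 4 fell (median 0.23), beside 23.6% and 23.8% of all genes tested. Hpgds, the sigma-class member that makes prostaglandin D2, rose with a log2 fold change of 3.90, Gsta1 (alpha class) with 2.21 and Gstp2 (pi class) with 1.94. The peroxisomal and mitochondrial Gstk1 fell by 3.02 on the log2 scale. Alpha and pi genes come in similar copies as well, and their sharing of reads was not examined.

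Of 17 genes of conjugate export and the mercapturate pathway that were tested, 8 rose and 4 fell (median 0.62). Abcc1, Abcc2, Abcc3 and Abcc4, which pump conjugates out of cells, had log2 fold changes of 1.03, 1.16, 1.94 and 1.08, and the aminopeptidase Anpep had 2.87. Kyat3 (a cysteine conjugate lyase) had −2.77, while the related lyase gene Kyat1 rose with 0.92 (edgeR adjusted p = 0.00717), and the aminoacylases Acy3 and Acy1 had −2.50 and −1.99. Ggt1, which opens glutathione conjugates, had 0.43 (edgeR adjusted p = 0.214).

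Among Nrf2, its partners and its inhibitors, 4 of 9 genes rose and 1 fell (median 0.43), and the gene that fell was Nfe2l2 itself, which encodes Nrf2. Nfe2l2 was at 64.3 to 114 CPM in the tumors against 104 to 258 in normal tissue, and its log2 fold change was −0.79 ± 0.16 (SE; edgeR adjusted p = 0.000282). The repressor Bach1 rose with 0.88, Keap1 with 0.83 and the Keap1-binding adaptor Sqstm1 with 0.85. Of 19 other genes known as Nrf2 targets, 16 rose and 0 fell, with a median of 1.41. The largest were Ptgr1 (5.68), Akr1b8 (3.58), Cbr3 (2.65) and Aox1 (2.63), which encode reductases and an oxidase of aldehydes and ketones. Hmox1 (0.80), Osgin1 (−0.23) and Fth1 (0.07) did not pass. The summed targets were at 14970 to 18550 CPM in tumors, against 5503 to 18170 in normal tissue, with normal kidney 7 highest in the second group. Fth1, which did not pass, took 2831 to 10002 CPM of the sum in normal tissue and 5196 to 6640 in tumors. Without Fth1, a choice made after the data were seen, the sum of the other 18 genes was 8857 to 12430 CPM in tumors. In normal tissue it was 2231 to 8167 CPM, again with normal kidney 7 highest. The groups overlapped in the sum of the whole list and did not overlap in this one, and sums over other genes were not computed. The mu-class genes had 4 higher and 2 lower of 7, at a median of 1.31. The lists were chosen with earlier results of these data known, so no conclusion is drawn from setting their counts beside those of the members.

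**Figure D5:**
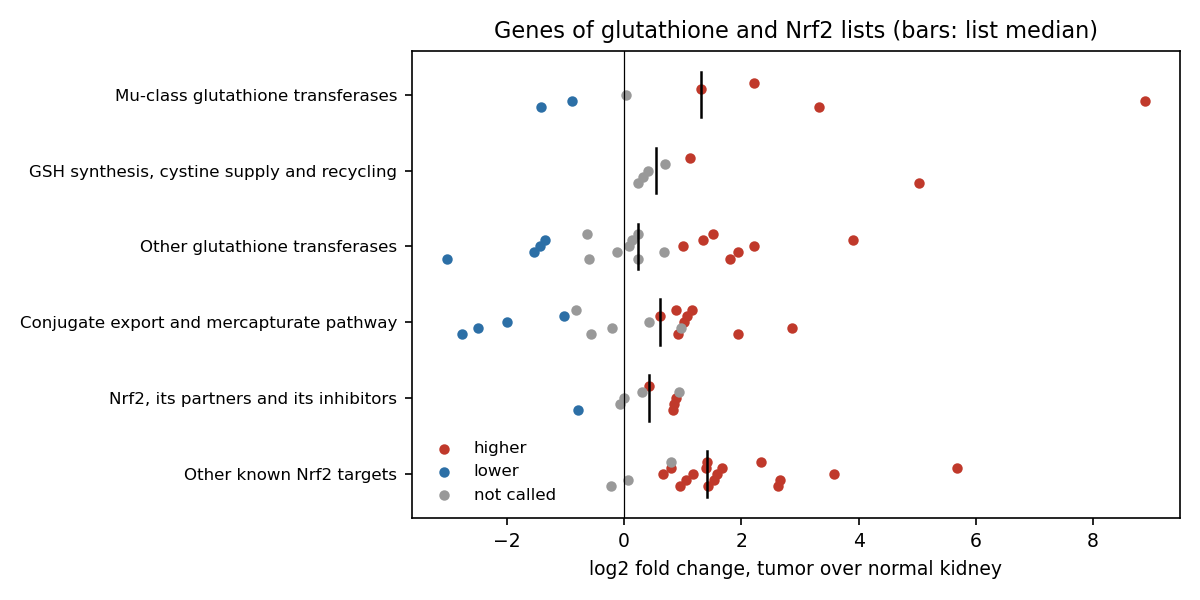
Log2 fold change, tumor over normal kidney, of each tested gene of the mu class and of the 5 lists, with red for higher, blue for lower and gray for not called, and a black bar at the median of each list. Gstm3 (8.88) is the point farthest to the right, and the medians run from 0.23 for other glutathione transferases to 1.41 for other known Nrf2 targets.

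How the other members varied with Gstm1 from library to library was described by correlation. After the mean of each group was taken out, the correlation with Gstm1 across the 20 libraries was 0.53 for Gstm5, 0.48 for Gstm3, 0.40 for Gstm4, 0.36 for Gstm6, 0.25 for Gstm7 and −0.25 for Gstm2, as a description. Without tumor 7 it was 0.44 for Gstm5 and between −0.05 and 0.20 for the others. The pseudogene Gstm2-ps1 stood at 0.97, and at 0.93 without tumor 7. Among other genes, those most like Gstm1 in this measure were Cnih4 (0.89), Eno1 (0.87), Crem (0.86), Cfl2 (0.85) and Ephx1 (0.85), and none of the 5 remained among the first 5 without tumor 7, which were Prmt1 (0.92), Lypla2 (0.90), Psmd7 (0.90), Trim27 (0.89) and Ap5s1 (0.88). All of these values share library depth and scaling.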

How the data were processed

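RNA was prepared from 10 tumors and 10 normal kidney regions, and poly(A) libraries were sequenced by a service provider. The authors deposited raw counts per gene for all samples in 1 table, with gene names and positions (mm10). The aligner, the counter and their use of strand are not given in the sources used here. Groups and numbers were taken from the labels. The members and the gene lists were chosen with earlier results of these data known.

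Counts were tested with edgeR 4.0.16 (R 4.3.3): filterByExpr with a minimum count of 10, TMM scaling, and the quasi-likelihood test of tumors against normal kidneys without a block, with Benjamini-Hochberg adjustment and a threshold of 0.05. Library totals were 14737516 to 26679704 counts. CPM and RPKM were computed from TMM-scaled counts, and log2 CPM with a prior count of 2. Ratios of 2 members used a pseudocount of 0.5 and permutation tests. limma 3.58.1 and DESeq2 1.42.0 gave alternatives. The edgeR script was tested on simulated data. Named list genes were the up to 4 calls of each list with the largest change and at least 1 CPM in a group, plus Nfe2l2 and Keap1. Further genes (Gclc, Gclm, Ggt1, Abcc1, Abcc2, Abcc3, Abcc4, Kyat1, Nqo1, Slc34a1 and Hmox1, Osgin1 and Fth1) were chosen after their values were seen. Transcript and promoter sequences came from GENCODE vM21 and RefSeq on GRCm38, whose gene positions equal those of the table for all members. Counts of PCR-amplified reads are not independent molecules, so limits from a count of 0 cover counting error only. With a numbering that the labels do not tie to a mouse, tumors and normal regions were tested as independent samples, although they came from the same mice. The permutation tests of the ratios were not repeated with the numbers as pairs. A gene near the cluster is not reported here.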

Additional observations from a re-analysis of the deposited data

Results flagged for a closer look

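A library was singled out when its gap to the nearest other library of its group, divided by the whole range of the group, passed the critical ratio of Dixon's test for 10 libraries. This was applied to log2 CPM of the 7 members and of their sum in both groups, 16 groups of libraries in all, of which 6 passed. Chance passes about 1 in 20 groups, and the members are measured in the same libraries, so the 6 are not independent.

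Tumor 7 was far below the other tumors in Gstm1 (ratio 0.739; log2 CPM 9.69, next lowest 11.1), in Gstm3 (0.4663; 4.71, next lowest 6.42), in Gstm7 (0.4666; 1.90, next lowest 2.68) and in the summed family (0.736; 9.98, next lowest 11.4). Those of Gstm3 and Gstm7 only just passed. This is the tumor with 3614 CPM of fibroblast markers, and the part of those cells in its values was not tested. Normal kidney 9 was far above the other normal kidneys in Gstm2 (0.569; log2 CPM 6.99, next highest 6.00). Normal kidney 6 was far above the others in Gstm3 (0.510; log2 CPM 1.40, next highest −1.01), on 44 counts.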

How the results depend on the processing

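All 462 log2 ratios of members recomputed under other settings kept their direction, and those tested again with other pseudocounts kept their side of the threshold. The 147 recomputed shares and the 25 recomputed values of the summed family moved by less than the spread between replicates. The number of members higher in tumors was 4 to 5 over other scalings, tests and filters, and 4 with each library left out. The number lower was 2 but for limma-voom, where it was 1, with Gstm7 at −0.70 ± 0.31 (SE; adjusted p = 0.0648). The direction of Gstm5 was not stable. Its log2 fold change was −0.084 with upper-quartile factors and −0.040 with library totals, and it was negative in 9 of the 20 settings that left out a library (range −0.046 to 0.27). The values of −0.030, −0.020, −0.017, −8.05e-05 and −0.000996 came without normal kidneys 2 to 6 in turn, and those of −0.014, −0.0028, −0.046 and −0.017 without tumors 2, 3, 5 and 8. The cause was not tested. Gstm3 ranged from 8.75 to 10.71 over other settings, which counts in normal kidney near 0 leave wide.

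With the replicate number as a block, 4 members were higher and 2 lower, as without it, with log2 fold changes of 2.24 for Gstm1 and 9.27 for Gstm3. The deviations of same-numbered libraries correlated between −0.14 and 0.38, over 0.1 in 9 of 10 pairs. In all, 8 tumors and 5 normal kidneys correlated best with their own number. Xist was high in the same numbers, 2, 3, 4, 5 and 6, in both groups. These are hints from the data and not from the labels, so the numbers were not used as pairs. The block left no call of a member changed.

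With the block, Nrf2 and its partners had 6 genes higher in place of 4, glutathione synthesis 3 in place of 2, conjugate export 10 higher and 5 lower in place of 8 and 4, and the other transferases 6 higher in place of 7. Among the lists, no count of calls moved by over 1.5 times. Depth limits Gstm3 most, with a median of 3.5 counts in normal kidney, where the other members had medians of 63.5 counts or more.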

Other observations

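The labels give no sex, and the libraries differed in sex-linked genes in the same way in both groups. Libraries numbered 2, 3, 4, 5 and 6 held 432 to 631 CPM of Xist among tumors and 498 to 755 CPM among normal kidneys, with Ddx3y at 0, and the other 5 of each group held at most 2.39 CPM of Xist. Both groups thus held 5 libraries of either kind, and tumor against normal kidney was not confounded with it.

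The normal kidneys were compared as ranges over the members. Normal kidneys 5, 7, 8 and 9, which were highest in Gstm1, had 103 to 325 CPM of Gstm5 against 77.6 to 119.6 in the other 6, 8.64 to 14.3 CPM of Gstm4 against 10.1 to 12.5, and 1.93 to 9.06 CPM of Gstm6 against 1.87 to 4.89. They had 37.8 to 127 CPM of Gstm2 against 46.9 to 63.8 in the other 6, and 4.59 to 35.1 CPM of Gstm7 against 14.2 to 21.7. The ranges overlapped in these members. The same 4 held 8995 CPM or more of the ferritin gene Fth1, against 2831 to 3526 in the other 6 and 5196 to 6640 in tumors, and 141 to 258 CPM of Nfe2l2 against 104 to 131. Gstm3 was at 0.0976 to 0.397 CPM in these 4 and at 0 to 2.53 in the other 6. These groups were seen in the data and are not the study's, and no test was made of them.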
